A study of Mus musculus with 12 samples.

Results

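Toll-like receptors are pattern recognition receptors of innate immune cells, and 10 of their genes were followed here in gonadal white adipose tissue (GWAT) out of the 55281 genes of the deposited table. The 10 were taken by gene symbol. They comprise 4 receptors of the cell surface (Tlr1, Tlr2, Tlr4 and Tlr6), 4 receptors of endosomes (Tlr7, Tlr8, Tlr9 and Tlr13), the adaptor Myd88 and the co-receptor Cd14. All 10 passed the filter on low counts. Male mice carried Hoip fl/fl alleles in every group, where Hoip is the gene Rnf31, and were either AdipoQ.Cre- littermates (WT) or AdipoQ.Cre+ (HoipA-KO). In AdipoQ.Cre+ mice the adiponectin promoter drives Cre in mature adipocytes, so the other cells of the tissue keep the gene. Mice began a control diet (CD, 14% fat by the labels) or a high-fat diet (HFD, 60% fat) at 6 weeks of age and stayed on it for 16 weeks. Each of the 4 groups had 3 libraries of polyA RNA, and each library pooled tissue of 3 mice.

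Surface receptors recognise microbial lipids and lipoproteins, while the endosomal receptors recognise nucleic acids that reach the endosome. On binding they recruit Myd88, which carries the signal through kinases and ubiquitin ligases to the transcription factor NF-κB, and the linear ubiquitin chains made by HOIP are among the chains that sustain this signal. In adipose tissue these receptors are best known from macrophages, and Tlr4, which also occurs on adipocytes, is known for its role in responses to saturated fat and endotoxin.

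The library totals ran from 30513500 to 60540300 estimated counts. The lowest value of any of the 10 genes was 28 counts, for Tlr9 in WT CD replicate 1, which is above the floor of 3 counts taken for a library. Levels are given as CPM, the count of a gene when a library is scaled to 1000000 counts, normalised over all 12 libraries. Tests used edgeR's quasi-likelihood test on 11 libraries, with p-values adjusted by Benjamini-Hochberg over all genes. WT CD thus entered with 2 libraries, because its replicate 3 is missing from the comparison tables the authors deposited, and counts that change with all 12 are named. WT CD replicate 2 held 14986 summed CPM of 6 epididymal epithelium markers and HoipA-KO HFD replicate 1 held 1311, against at most 101 in the other libraries. Rnf31 lay between 12.8 and 21.2 CPM in the WT libraries and between 17.7 and 22.5 CPM in the HoipA-KO libraries, so whole-tissue Rnf31 gave no check of the genotype labels. Adipocytes are only one of the cell types in the tissue. Nothing states that the pools of a group came from separate litters or cohorts, so the p-values measure the spread between pools.

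The genes lie on several chromosomes of GRCm38. Tlr1 (chr5:64924679-64933563) and Tlr6 (chr5:64952031-64960097) are neighbours on the minus strand, 18467 bases apart. They are close paralogues, and their estimated counts were not whole numbers in any of the 12 libraries (within 0.01 of a count), which shows that reads were shared out, so how much belongs to each is uncertain. The counts of the other 8 genes were whole. Tlr8 (chrX:167242696-167264329) and Tlr7 (chrX:167304929-167330558) are also neighbours, 40599 bases apart on the minus strand, and Tlr13 (chrX:106143204-106160493) lies elsewhere on the X chromosome. Tlr2 is at chr3:83836272-83841767, Tlr4 at chr4:66827584-66930284, Tlr9 at chr9:106222598-106226883 and Myd88 at chr9:119335934-119341411. Myd88 overlaps Acaa1a on the opposite strand and Slc22a14 on its own strand. The library kit keeps strand, but whether the quantification used it is not given in the sources used here.

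The RefSeq promoter table for GRCm38.p6 held entries for 7 of the 10 genes, with 9 promoters among them. Tlr4, Tlr7 and Cd14 had no entry and were not searched, so surface and endosomal receptors cannot be compared here. The 250 bases before each start were searched on both strands for GAGGAA, the core bound by PU.1, which is the factor that defines the myeloid lineage. It was found in 4 of the 9 promoters and in 23.3% of all 32851 promoters in the table. The 4, of Tlr1, Tlr8, Tlr9 and Tlr13, are shown with the match in capitals (TTCCTC where it is on the other strand). They are printed from chr5:64933564-64933808, minus strand, for Tlr1, chrX:167264330-167264579, minus strand, for Tlr8, chr9:106222348-106222597, plus strand, for Tlr9 and chrX:106143025-106143203, plus strand, for Tlr13, and stop where the annotated gene begins.
Tlr1: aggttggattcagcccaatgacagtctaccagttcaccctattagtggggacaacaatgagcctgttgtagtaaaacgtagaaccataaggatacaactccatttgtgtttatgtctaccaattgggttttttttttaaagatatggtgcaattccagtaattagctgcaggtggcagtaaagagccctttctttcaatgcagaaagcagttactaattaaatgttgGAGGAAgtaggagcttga
Tlr8: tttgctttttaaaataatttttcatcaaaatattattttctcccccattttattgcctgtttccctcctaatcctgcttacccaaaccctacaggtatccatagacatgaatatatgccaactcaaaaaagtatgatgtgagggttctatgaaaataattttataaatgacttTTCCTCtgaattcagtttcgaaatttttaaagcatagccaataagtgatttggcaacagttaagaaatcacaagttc
Tlr9: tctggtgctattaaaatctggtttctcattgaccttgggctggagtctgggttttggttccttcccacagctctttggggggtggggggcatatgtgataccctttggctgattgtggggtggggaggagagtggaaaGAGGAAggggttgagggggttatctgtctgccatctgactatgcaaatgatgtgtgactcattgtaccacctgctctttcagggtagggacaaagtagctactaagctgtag
Tlr13: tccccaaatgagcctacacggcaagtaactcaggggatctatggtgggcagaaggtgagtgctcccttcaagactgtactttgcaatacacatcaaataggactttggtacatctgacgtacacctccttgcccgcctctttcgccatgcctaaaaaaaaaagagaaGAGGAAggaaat
An AP-1 motif (TGANTCA) was matched in 1 of the 9 promoters, that of Tlr9, and in 6.75% of all promoters. An interferon-response motif, GAAA followed by any 2 bases and GAAA again, was matched in 2, of Tlr6 and Myd88, and in 2.98% of all. An NF-κB motif, GGG followed by any 5 bases and CC, was matched in 2, of Tlr2 and Tlr6, and in 45.8% of all. A match describes letters only and is not a measured binding site.

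On CD, all 10 genes were higher in HoipA-KO than in WT GWAT, and in each of them the lowest HoipA-KO library lay above the highest WT library. The 10 were called at an adjusted p under 0.05 against 18.9% of all 18427 genes tested called higher in this comparison. Groups without overlap were found for 20.1% of genes in this direction. The rise ran from 0.94 for Myd88 to 6.28 for Tlr13 on the log2 scale, with a median of 3.09 against -0.06 over all genes. In whole tissue, more cells of a type and more RNA per cell cannot be told apart.

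Tlr2, which pairs with Tlr1 or Tlr6 to recognise bacterial lipopeptides, measured 5.36, 3.56 and 3.04 CPM in the 3 WT CD libraries and 26.5, 28.3 and 24.2 CPM in HoipA-KO CD. Its HoipA-KO libraries were close to each other and far above WT. The log2 difference was 2.61 ± 0.22 (SE, edgeR adjusted p = 0.000452), with a 95% interval of 2.11 to 3.10. Tlr1 measured 2.17, 2.93 and 1.95 CPM in WT CD and 36.9, 31.1 and 34.9 CPM in HoipA-KO CD, a log2 difference of 3.79 ± 0.43. Tlr6 measured 1.34, 1.54 and 1.17 CPM in WT CD and 19.9, 22.0 and 18.2 CPM in HoipA-KO CD, a log2 difference of 3.84 ± 0.39. These are rises of 13.8-fold for Tlr1 and 14.3-fold for Tlr6, each with HoipA-KO libraries within a narrow range. Tlr4, the endotoxin receptor, measured 20.3, 8.36 and 9.78 CPM in WT CD and 47.2, 77.1 and 33.8 CPM in HoipA-KO CD. It was the surface receptor with the smallest change and the widest spread, with WT CD replicate 1 well above its group. The log2 difference of 1.93 ± 0.50 (edgeR adjusted p = 0.0146) became 1.43 with an adjusted p of 0.078 when WT CD replicate 2 was left out, and Tlr4 was the 1 gene of the 10 whose call was lost.

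Among the endosomal receptors, Tlr13, which recognises a stretch of bacterial ribosomal RNA and has no human counterpart, changed most. It measured 3.17, 3.39 and 2.15 CPM in WT CD and 241, 323 and 173 CPM in HoipA-KO CD. The HoipA-KO CD libraries spread widely but lay far above all of WT CD. Its log2 difference was 6.28 ± 0.78 (edgeR adjusted p = 0.000565), a 77.5-fold rise, with a 95% interval of 4.54 to 8.01 on the log2 scale. Tlr8, an RNA-sensing relative of Tlr7, measured 2.19, 2.08 and 1.93 CPM in WT CD and 59.0, 90.8 and 36.0 CPM in HoipA-KO CD. The WT libraries were close to each other, and the HoipA-KO libraries spread over a 2.52-fold range. The log2 difference was 4.91 ± 0.75. Tlr7, the receptor for single-stranded RNA, measured 5.60, 4.86 and 4.60 CPM in WT CD and 69.8, 70.2 and 41.9 CPM in HoipA-KO CD, a log2 difference of 3.58 ± 0.51. Tlr9, the receptor for unmethylated CpG DNA, was low throughout, at 0.68, 1.06 and 1.503 CPM in WT CD and 5.41, 4.41 and 3.71 CPM in HoipA-KO CD. Its log2 difference was 2.41 ± 0.44, which was below those of the other 3 endosomal receptors.

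Myd88 measured 27.1, 29.2 and 21.7 CPM in WT CD and 49.9, 55.2 and 51.9 CPM in HoipA-KO CD. The groups did not overlap, and the log2 difference of 0.94 ± 0.18 (edgeR adjusted p = 0.00323) was the smallest of the 10. Cd14, which delivers endotoxin to Tlr4, measured 19.5, 12.7 and 8.91 CPM in WT CD and 62.1, 74.9 and 78.7 CPM in HoipA-KO CD, a log2 difference of 2.21 ± 0.38. Its HoipA-KO pools lay closer to each other than those of its partner Tlr4. Over the 10 genes the adjusted p ranged from 0.000452 to 0.0146 in this comparison.

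**Figure D1:**
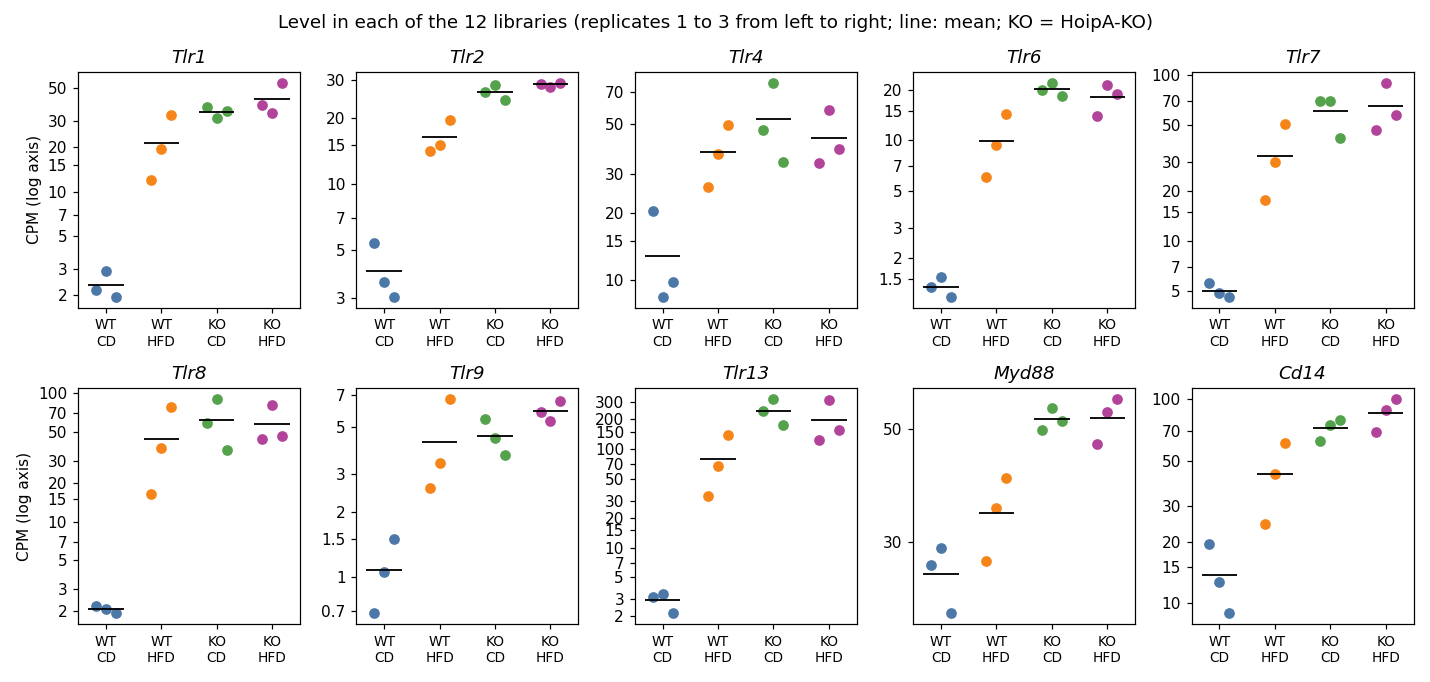
Level of each of the 10 genes (CPM, log axis, scaled per gene) in the 12 libraries, with 3 points per group and a line at the group mean. WT CD libraries lie below both HoipA-KO groups for all 10 genes, and WT HFD replicate 3 is the highest library of its group for all 10.

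Macrophage markers moved with these genes. The 8 markers (Adgre1, Csf1r, Cd68, Mertk, Fcgr1, Itgam, Lyz2 and C1qa) summed to 381 to 609 CPM in WT CD, 1685 to 5068 CPM in WT HFD, 8427 to 11494 CPM in HoipA-KO CD and 6275 to 10087 CPM in HoipA-KO HFD. Of the 8, 7 were called higher in HoipA-KO on CD, with a median log2 difference of 4.14. The 10 adipocyte markers summed to 12381 to 43203 CPM in WT CD and 6313 to 9470 CPM in HoipA-KO CD, and 9 of them were called lower. Markers of other cells that carry these receptors were lower in level. The 6 neutrophil markers summed to at most 26.2 CPM outside HoipA-KO HFD replicate 1, which had 85.6 CPM, and 1 of the 5 tested was called higher on CD. The 5 B cell markers summed to at most 29.6 CPM in any library, with none of the 5 called. The 5 plasmacytoid dendritic cell markers summed to at most 70.4 CPM, with 1 called higher and 1 lower on CD, and the 6 markers of conventional dendritic cells summed to 34.8 to 250 CPM, with 3 called higher. The 4 monocyte markers summed to 19.0 to 149 CPM, with 1 called higher. The 5 mast cell markers summed to 20.3 to 30.4 CPM in WT CD and 549 to 658 CPM in HoipA-KO CD, and 4 of them were called higher. None of the 5 T cell markers was called, with 0 of 5 in every comparison. Over all genes, 18.9% were called higher and 18.8% lower in HoipA-KO on CD. The part of these cells in the results was not tested.

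Set against the summed macrophage markers of the same library, the 10 genes did not keep one ratio. Tlr13 measured 5.199 to 7.55 CPM per 1000 CPM of the 8 markers in WT CD and 20.05 to 28.6 in HoipA-KO CD, and was higher in all 9 libraries of the other groups than in any WT CD library. Tlr8 was at 3.599 to 5.07 in WT CD and 4.16 to 7.90 in HoipA-KO CD, and these ranges overlapped. Its ratio was highest in WT HFD, at 9.71 to 15.4, above all libraries of the other groups. Tlr2 went the other way from Tlr13, from 7.94 to 8.80 in WT CD to 2.46 to 3.14 in HoipA-KO CD. The ratios of Tlr4, Tlr7, Tlr9, Myd88 and Cd14 were also higher in all WT CD than in all HoipA-KO CD libraries. Myd88, an adaptor used by many cell types, fell from 44.4 to 65.1 in WT CD to 4.801 to 5.995 in HoipA-KO CD. For Tlr1 and Tlr6 the ranges of WT CD and HoipA-KO CD overlapped. Set against the mean log2(CPM + 1) of the 8 markers instead of their sum, both were higher in WT CD without overlap. The values were -3.99 to -3.57 against -4.48 to -4.43 for Tlr6. For Tlr1 the lowest WT CD library, at -3.556, lay barely above the highest HoipA-KO CD library, at -3.563. On this scale the added 1 raises low levels most. In WT CD, Tlr6 was at 1.17 to 1.54 CPM and Tlr1 at 1.95 to 2.93 CPM, and HoipA-KO CD was at 18.2 CPM or more for both. The separation on this scale therefore gives no direction for these genes. The sum is weighted to Lyz2, which gave 301 of 609 CPM in WT CD replicate 1 and 7498 of 11494 CPM in HoipA-KO CD replicate 2. C1qa rose less, from 61.8 to 109 CPM in WT CD to 421 to 704 CPM in HoipA-KO CD. The ratios thus depend on the markers chosen, on taking their sum or their mean log, and on the added 1. For some genes their direction may too. They are descriptions, with no test.

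**Figure D2:**
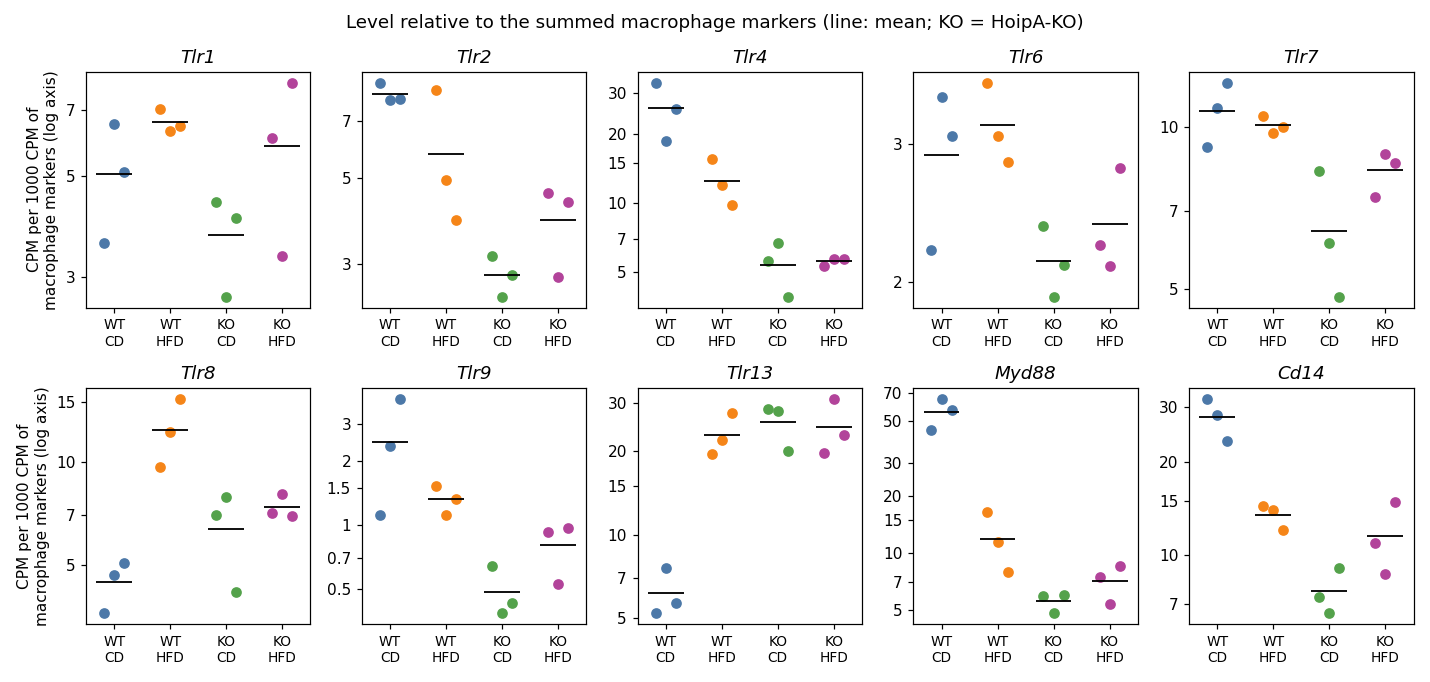
Level of each gene per 1000 CPM of the 8 summed macrophage markers in the same library (log axis, scaled per gene), with 3 points per group and a line at the mean. Tlr13 is lowest in the 3 WT CD libraries, whereas Tlr2, Tlr4, Tlr7, Tlr9, Myd88 and Cd14 have their highest mean there.

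On HFD, 2 of the 10 genes were called higher in HoipA-KO than in WT, Tlr2 and Myd88, against 4.2% of all genes called higher in this comparison. The other 8 had positive estimates as well but did not pass, and 7 of the 10 were under 0.05 before adjustment. Over all 12 libraries 0 of the 10 were called by the edgeR test, where 0.531% of all genes were called higher and 7 of the 10 were again under 0.05 before adjustment. With DESeq2's Wald test on the 11 libraries 7 of the 10 were called, against 12.9% of all genes called higher. The median log2 difference of the 10 was 0.85, against 0.06 over all genes.

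Tlr2 measured 14.2, 15.1 and 19.6 CPM in WT HFD and 28.6, 27.9 and 29.1 CPM in HoipA-KO HFD. The HoipA-KO pools were almost level and all above WT, and the log2 difference was 0.82 ± 0.18 (edgeR adjusted p = 0.0236). Myd88 measured 27.6, 35.0 and 40.1 CPM in WT HFD and 46.7, 54.1 and 57.4 CPM in HoipA-KO HFD, without overlap. Its log2 difference was 0.64 ± 0.15 (edgeR adjusted p = 0.0306). Both calls were lost when WT HFD replicate 1, WT HFD replicate 2, HoipA-KO HFD replicate 2 or HoipA-KO HFD replicate 3 was left out, and that of Myd88 also without HoipA-KO CD replicate 1. In these 4 cases, 4 to 6 of the 10 genes were still under 0.05 before adjustment, and the calls over all genes in either direction fell from 2179 to between 279 and 550. Leaving out WT HFD replicate 3 raised the count to 7, where 1149 of 18376 genes were called higher. Tlr1 and Cd14 had groups without overlap too, so that 4 of the 10 did, where 20.9% of all genes did in this direction. Cd14 measured 24.4, 42.8 and 61.2 CPM in WT HFD and 68.7, 88.2 and 100.4 CPM in HoipA-KO HFD, with a 95% interval of the log2 difference from 0.32 to 1.72. Tlr1 measured 11.9, 19.3 and 32.7 CPM in WT HFD and 38.2, 33.6 and 54.2 CPM in HoipA-KO HFD, with an interval from 0.27 to 1.73. The lowest HoipA-KO pool of Tlr1 was just above the highest WT pool.

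The endosomal receptors overlapped between genotypes on HFD, as did the surface receptors Tlr4 and Tlr6. Tlr13 measured 33.0, 67.2 and 139 CPM in WT HFD and 124, 313 and 155 CPM in HoipA-KO HFD, a log2 difference of 1.33 ± 0.52. Tlr8 measured 16.4, 37.5 and 77.9 CPM in WT HFD and 44.5, 81.4 and 46.9 CPM in HoipA-KO HFD, with a 95% interval of the log2 difference from -0.76 to 1.58. Tlr7 measured 17.7, 29.8 and 50.6 CPM in WT HFD and 46.5, 90.0 and 57.8 CPM in HoipA-KO HFD. In all 3, WT HFD replicate 3 reached into the HoipA-KO range and HoipA-KO HFD replicate 2 was the highest library. Tlr9 measured 2.59, 3.40 and 6.72 CPM in WT HFD and 5.83, 5.31 and 6.54 CPM in HoipA-KO HFD, so its highest library on HFD was a WT pool. Among the surface receptors, Tlr4 showed the smallest difference, at 26.2, 36.7 and 49.5 CPM in WT HFD and 33.6, 58.0 and 38.7 CPM in HoipA-KO HFD, a log2 difference of 0.23 ± 0.42 with an interval from -0.70 to 1.16. Tlr6 measured 6.04, 9.38 and 14.4 CPM in WT HFD and 14.0, 21.1 and 18.8 CPM in HoipA-KO HFD. Of the 8 macrophage markers, 3 were called higher in HoipA-KO on HFD, with a median log2 difference of 1.11, and all 10 adipocyte markers were called lower. Over all genes, 4.2% were called higher and 7.62% lower in this comparison.

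In WT mice, HFD raised 8 of the 10 genes over CD, against 9.35% of all genes called higher. This comparison shares the WT CD libraries with that of the genotypes on CD, so the values stand side by side and their likeness is not a result. The 8 were all the receptors except Tlr4, and Cd14. Tlr13 rose by 4.62 ± 0.71 on the log2 scale, Tlr8 by 4.37 ± 0.73, Tlr1 by 3.07 ± 0.42, Tlr6 by 2.80 ± 0.37, Tlr7 by 2.66 ± 0.49, Tlr9 by 2.29 ± 0.44, Tlr2 by 1.89 ± 0.21 and Cd14 by 1.43 ± 0.36. The adjusted p ran from 0.00512 for Tlr2 to 0.0314 for Cd14 in edgeR's quasi-likelihood test. Tlr4 had a log2 difference of 1.40 ± 0.49 (edgeR adjusted p = 0.0810) and was called over all 12 libraries, where 9 genes passed against 9.05% of all genes. DESeq2 also called 9, against 13.2% of all genes. Myd88 had 0.30 ± 0.17, with an interval from -0.09 to 0.68, and was the 1 gene of the 10 whose WT CD and WT HFD libraries overlapped. Groups without overlap were found for 17.3% of all genes in this direction. In an edgeR fit of the 5 WT libraries alone, 0 of the 10 passed, with 9 under 0.05 before adjustment and 0 calls among all genes. Without WT CD replicate 2, the library with the epididymal markers, 6 of the 10 passed, where 750 of 19079 genes were called higher, compared with 1723 of 18427 before.

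WT HFD replicate 1 was the lowest and replicate 3 the highest library of its group for all 10 genes. The ratio of the highest to the lowest library in this group had a median of 2.55 over the 10 genes, while the medians of the other groups were 1.54 for WT CD, 1.36 for HoipA-KO CD and 1.56 for HoipA-KO HFD. The summed macrophage markers had the same order, with the lowest sum of 1685 CPM in replicate 1 and the highest of 5068 CPM in replicate 3. Of the 8 macrophage markers, 7 were called higher on HFD in WT, against 9.35% of all genes. The part of this difference between pools in the diet result was not tested.

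In HoipA-KO mice, HFD against CD gave no call. The edgeR test called 0 of the 10, where it called 0% of all genes, with 0 of the 10 under 0.05 before adjustment, and DESeq2 also called 0 of the 10, where it called 0.0385% of all genes. The estimates ran from -0.33 for Tlr13 to 0.37 for Tlr9 on the log2 scale, 5 of them positive. The intervals allow for sizeable differences in some genes, from -1.47 to 0.81 for Tlr13 and from -1.29 to 1.05 for Tlr8, and were narrower for Myd88 (-0.34 to 0.34) and Tlr2 (-0.30 to 0.50).

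The interaction of genotype and diet, which is the genotype difference on HFD minus that on CD, was called for 6 of the 10 genes, all negative, against 3.58% of all genes called in this direction. It was -4.95 ± 0.84 for Tlr13, -4.50 ± 0.86 for Tlr8, -2.97 ± 0.46 for Tlr6, -2.79 ± 0.51 for Tlr1, -2.57 ± 0.60 for Tlr7 and -1.79 ± 0.27 for Tlr2 on the log2 scale. The adjusted p of these 6 ran from 0.0256 to 0.0479 in edgeR's quasi-likelihood test. Myd88 had -0.30 ± 0.23, Cd14 -1.19 ± 0.47, Tlr4 -1.70 ± 0.64 and Tlr9 -1.92 ± 0.55, which did not pass. The count of 6 fell to 0 when WT CD replicate 2, WT HFD replicate 2, any 1 of the HoipA-KO CD libraries, or HoipA-KO HFD replicate 1 or 3 was left out, with 7 to 9 of the 10 still under 0.05 before adjustment. In these 7 fits the calls over all genes also fell, from 721 to between 1 and 4. The count was 6 over all 12 libraries, against 2.7% of all genes, and 7 with DESeq2, against 8.58%. Of the macrophage markers, 5 of 8 were called with a negative interaction.

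**Figure D3:**
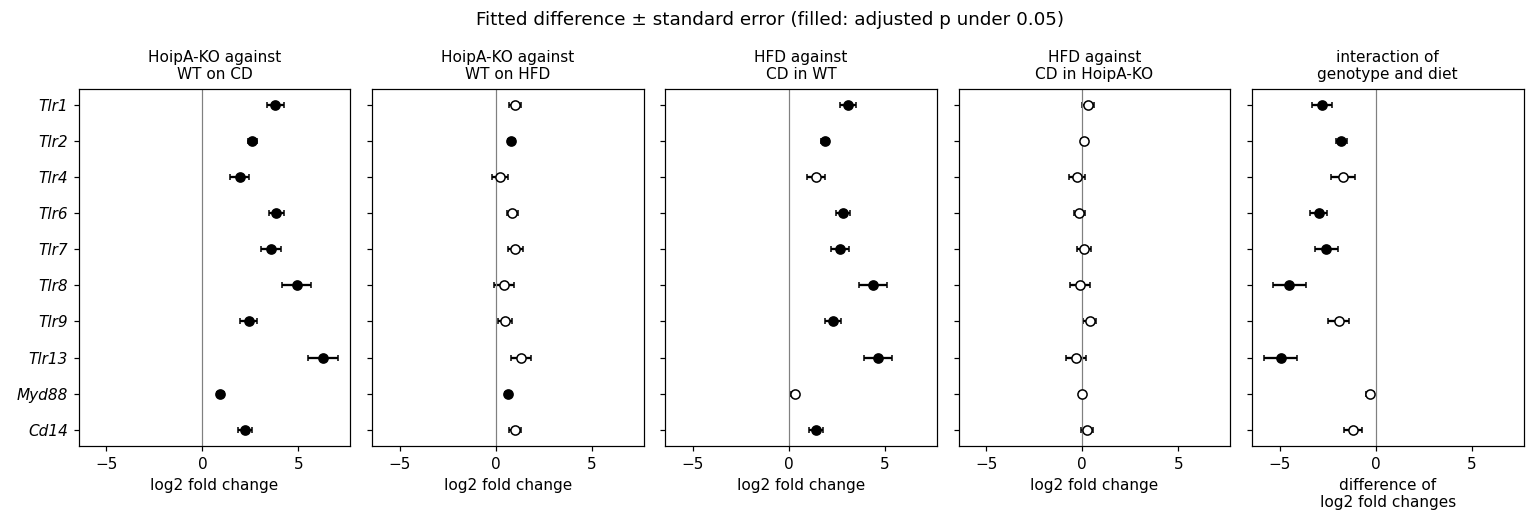
Fitted log2 differences of the 10 genes in the 4 comparisons and their interaction, over 11 libraries, with bars of 1 standard error and filled points for an adjusted p under 0.05. All 10 are filled and positive for HoipA-KO against WT on CD, and none is filled for the diets within HoipA-KO.

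Surface and endosomal receptors were then set against each other. Levels were compared between genes as CPM per kilobase of exon, which corrects for gene length. In WT CD, Myd88 and Cd14 had the highest levels, at means of 10.1 ± 1.49 and 7.90 ± 3.09 CPM per kb (SD, n = 3), and their libraries overlapped. Tlr4 followed at 2.31 ± 1.18 CPM per kb, then Tlr2 at 1.32 ± 0.40 and Tlr7 at 1.23 ± 0.13, with overlap between neighbours. Tlr1, Tlr13 and Tlr8 lay below these without overlap, at 0.70, 0.67 and 0.58 CPM per kb, and overlapped as neighbours, and Tlr6 and Tlr9, at 0.36 and 0.31, were lowest and overlapped each other. In HoipA-KO CD the order was different. Tlr13 led at 57.1 ± 17.4 CPM per kb, overlapping Cd14 at 41.5 ± 5.01. Below these without overlap came Myd88 at 20.3 ± 1.04, Tlr8 at 17.3 ± 7.68 and Tlr7 at 14.8 ± 3.98. Tlr1, Tlr4 and Tlr2 lay between 8.73 and 10.3 CPM per kb with overlapping libraries, and Tlr6 at 5.37 and Tlr9 at 1.30 were each separate. In WT HFD, Cd14 at 24.7 ± 10.6 and Tlr13 at 18.6 ± 12.6 CPM per kb came first, and the libraries of neighbours in the order overlapped except between Tlr2 and Tlr6. In HoipA-KO HFD, Cd14 and Tlr13 led at 49.5 ± 9.23 and 45.8 ± 23.6 CPM per kb and overlapped.

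Of the summed CPM per kb of the 8 receptors, the 4 endosomal ones held 31.2, 41.9 and 41.5% in the 3 WT CD libraries compared with 54.3, 63.3 and 70.2% in WT HFD. They held 73.0, 75.5 and 67.7% in HoipA-KO CD, and on HFD the HoipA-KO libraries held 63.9, 77.1 and 63.2%. All 9 libraries of the other groups were above the 3 of WT CD. Tlr3, also an endosomal receptor, and Tlr5, also of the surface, are outside the 8 and entered no share. Tlr3 measured 7.96 to 15.9 CPM in WT CD, above each of the 4 endosomal receptors there, and 11.6 to 17.0 CPM in HoipA-KO CD. The shares thus hold for the 8 receptors only. The gain lay mostly in Tlr13, from 7.86 to 11.5% in WT CD to 44.2 to 47.7% in HoipA-KO CD, and in Tlr8, from 6.53 to 8.59% to 11.01 to 16.1%. Both shares were above WT CD in WT HFD too, at 24.0 to 33.2% for Tlr13 and 14.3 to 22.3% for Tlr8. Tlr7 and Tlr9 went the other way, with Tlr7 at 14.7 to 17.999% in WT CD and 10.9 to 13.7% in HoipA-KO CD. Tlr4 had the largest loss of share among the surface receptors, from 22.0 to 39.1% in WT CD to 6.69 to 8.82% in HoipA-KO CD. Tlr6 kept 3.68 to 6.05% over all 12 libraries. The log2 differences between genotypes on CD ran from 1.93 to 3.84 over the surface receptors and from 2.41 to 6.28 over the endosomal ones, so the classes overlapped. The median log2 difference between genotypes on CD was 4.24 over the endosomal and 3.20 over the surface receptors, with 4 genes in each.

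As an average over the genes of each class, the mean log2(CPM + 1) of the surface receptors minus that of the endosomal receptors was also taken. It was 0.69, 0.35 and 0.28 in the WT CD libraries and -0.66, -0.69 and -0.28 in HoipA-KO CD. It was -0.02, -0.37 and -0.76 in WT HFD and -0.40, -0.88 and -0.34 in HoipA-KO HFD. All positive values were in WT CD. These values were not tested, since the classes hold 4 genes each that were chosen by name.

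**Figure D4:**
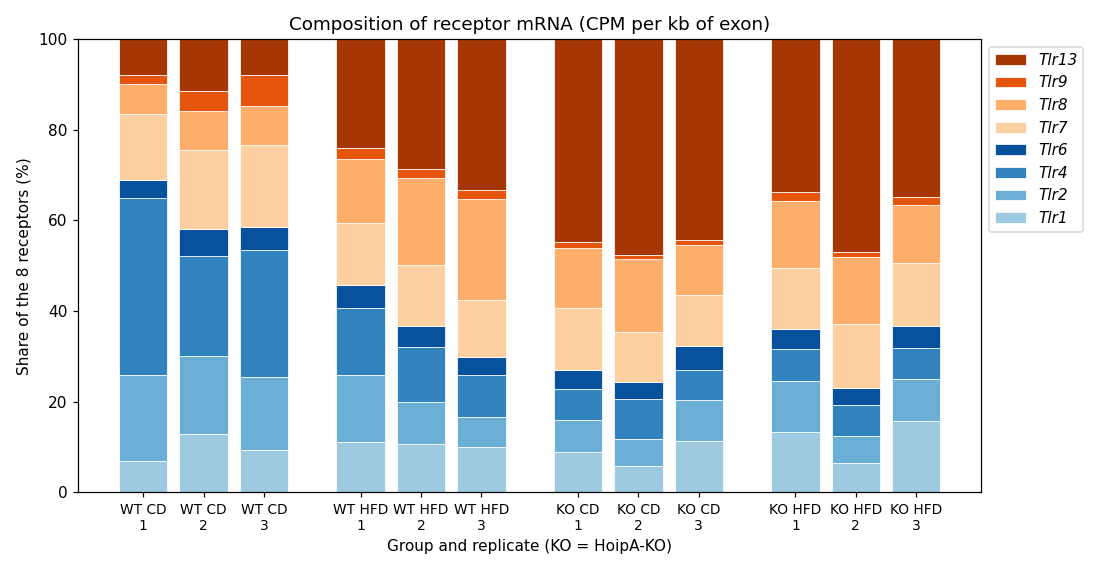
Share (%) of each of the 8 receptors in their summed level (CPM per kb of exon) in each of the 12 libraries, as stacked bars with surface receptors in blue below and endosomal receptors in orange above. The endosomal share is 31.2 to 41.9% in WT CD and 54.3 to 77.1% in the other libraries, with Tlr13 as the largest part in WT HFD and in both HoipA-KO groups.

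Among all genes with a mean of at least 1 CPM, 15786 in number, those whose log2(CPM + 1) profile over the 12 libraries came nearest to each gene were named by the root mean square difference of centred values. For Tlr13 these were Cd84 (0.14) and Cd300lb (0.20), against a root mean square of 2.42 for Tlr13 itself. For Tlr8 they were Atp8b4 (0.23) and Cd300ld3 (0.27), for Tlr7 Havcr2 (0.19) and Tnfrsf11a (0.20), and for Tlr9 Ppfia4 (0.15) and Chst3 (0.20). For Tlr1 they were Cd83 (0.20) and C1qb (0.25), for Tlr2 Tifa (0.15) and Clec4a1 (0.17), for Tlr4 Slc25a24 (0.13) and Cpt1a (0.15), and for Tlr6 Lcp2 (0.12) and Csf2rb2 (0.13). For Cd14 they were Fhl3 (0.12) and Pla2g15 (0.14), and for Myd88 Gm31718 (0.05) and Dhps (0.08), where Myd88 itself had a root mean square of only 0.45. The points share libraries and depth, and the distances are descriptions.

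None of the 4 other Toll-like receptors of the mouse was called higher in HoipA-KO over the 11 libraries, on either diet. Tlr3, the receptor for double-stranded RNA, which signals without Myd88, measured 15.9, 12.2 and 7.96 CPM in WT CD, and on HFD the WT libraries measured 26.0, 21.0 and 22.1 CPM. Its HoipA-KO libraries measured 14.3, 17.0 and 11.6 CPM on CD, and 14.3, 14.9 and 12.6 CPM on HFD. WT HFD was the group that stood above the others, without overlap. Its log2 difference was 0.07 ± 0.21 between genotypes on CD, -0.71 ± 0.18 on HFD (edgeR adjusted p = 0.0392) and 0.73 ± 0.21 for HFD in WT (edgeR adjusted p = 0.0458). Tlr5, the flagellin receptor, was called lower in HoipA-KO on both diets over 11 libraries, by -1.34 ± 0.47 on CD and -1.53 ± 0.43 on HFD. It measured 10.9, 4.62 and 3.77 CPM in WT CD and 3.13, 3.31 and 2.44 CPM in HoipA-KO CD, with replicate 1 of WT CD far above the rest. On HFD it measured 16.3, 9.77 and 7.87 CPM in WT and 6.02, 2.86 and 2.76 CPM in HoipA-KO, without overlap. Over all 12 libraries, no fall of Tlr3 or Tlr5 in HoipA-KO was called on either diet. Tlr11 and Tlr12 were low, at no more than 1.84 CPM in any library. Tlr11 was called higher on HFD in WT, by 1.75 ± 0.48, and had 1.30 ± 0.47 between genotypes on CD (edgeR adjusted p = 0.0556, and 0.0417 over all 12 libraries), while Tlr12 was not called in any comparison.

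The rest of the pathway was followed through 68 listed genes, of which 67 were tested. On CD, 34 were called higher and 4 lower in HoipA-KO, with a median log2 difference of 0.86, where 18.9% of all genes were called higher and 18.8% lower. On HFD, 12 were higher and 5 lower, where 4.2% and 7.62% of all genes were. Over all 12 libraries 2 were higher and 0 lower on HFD, where 0.531% and 2.25% of all genes were. HFD in WT raised 26 and lowered 1, against 9.35% and 5.47% of all genes.

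The proteins that fold, move and cut the endosomal receptors had 8 of 9 genes called higher on CD, the highest share among the groups of the list. They are not particular to these receptors, as Hsp90b1 and Cnpy3 also fold surface receptors and the proteases cut many other proteins. Unc93b1, which escorts these receptors from the endoplasmic reticulum, measured 38.0 to 60.7 CPM in WT CD and 391 to 449 CPM in HoipA-KO CD, a log2 difference of 3.06 ± 0.38. Ctss, a cathepsin that processes them, rose by 5.53 ± 0.58, the endosomal transporter Slc15a3 by 5.52 ± 0.62 and the protease Lgmn by 3.89 ± 0.47. The ninth, the chaperone Hsp90b1, had 0.13 ± 0.31. On HFD, 4 of the 9 were higher, Lgmn, Ctss, Ctsl and Unc93b1.

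Of the 6 accessory proteins at the surface, 3 were higher on CD. They were Cd180, an inhibitory relative of Tlr4, at 5.49 ± 0.61, its partner Ly86 at 2.83 ± 0.34, and Ly96, which binds endotoxin together with Tlr4, at 1.51 ± 0.27. Among the 4 other adaptors with a TIR domain, Ticam2 rose by 3.53 ± 0.48 and Ticam1 by 1.19 ± 0.21, while Sarm1 was called lower by -3.63 ± 1.03. Sarm1 measured 0.34, 12.3 and 1.00 CPM in WT CD, against 0.36 to 0.85 CPM in the other 9 libraries. The high value was in WT CD replicate 2, the library with the highest epididymal markers, whose part in this call was not tested.

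Of the 4 interferon regulatory factors, Irf5 rose by 3.95 ± 0.40 and Irf8 by 2.89 ± 0.25 on CD, while Irf3 had 0.02 ± 0.19 and Irf7 -0.60 ± 0.32. Of 15 kinases, ubiquitin ligases and their partners, 7 were higher and 1 lower. The adaptor Pik3ap1 rose by 4.50 ± 0.57, the kinase Ikbke by 2.63 ± 0.28 and Irak4, the first kinase to join Myd88, by 1.39 ± 0.24, whereas Tab3 fell by 0.88 ± 0.23. Traf6, the ubiquitin ligase below the Irak kinases, had 0.05 ± 0.19. Of 7 inhibitors, Irak3, at 1.17 ± 0.27, and Tnip1, at 0.65 ± 0.15, were called higher, Irak3 over the 11 libraries but not over all 12.

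Of 19 genes that Toll-like receptor signalling induces, 18 were tested, and 10 were higher and 1 lower on CD. The chemokines Ccl3 and Ccl4 rose by 6.11 ± 0.61 and 4.03 ± 0.61 and Tnf by 3.75 ± 0.45. Il12b was called higher too, but it had 0 and 1 counts in the 2 WT CD libraries of the fit, 5 in WT CD replicate 3, and 41, 16 and 33 counts in HoipA-KO CD, so its fitted difference depends on the prior count and is not given. Nos2 was called lower over 11 libraries, by -1.52 ± 0.46, and not over all 12. The NF-κB inhibitor Nfkbia, a rapid target of the pathway, had 0.08 ± 0.30. These genes are also induced by other signals. On HFD, 3 of the 18 were higher in HoipA-KO, Cxcl2, Ccl3 and Il10.

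**Figure D5:**
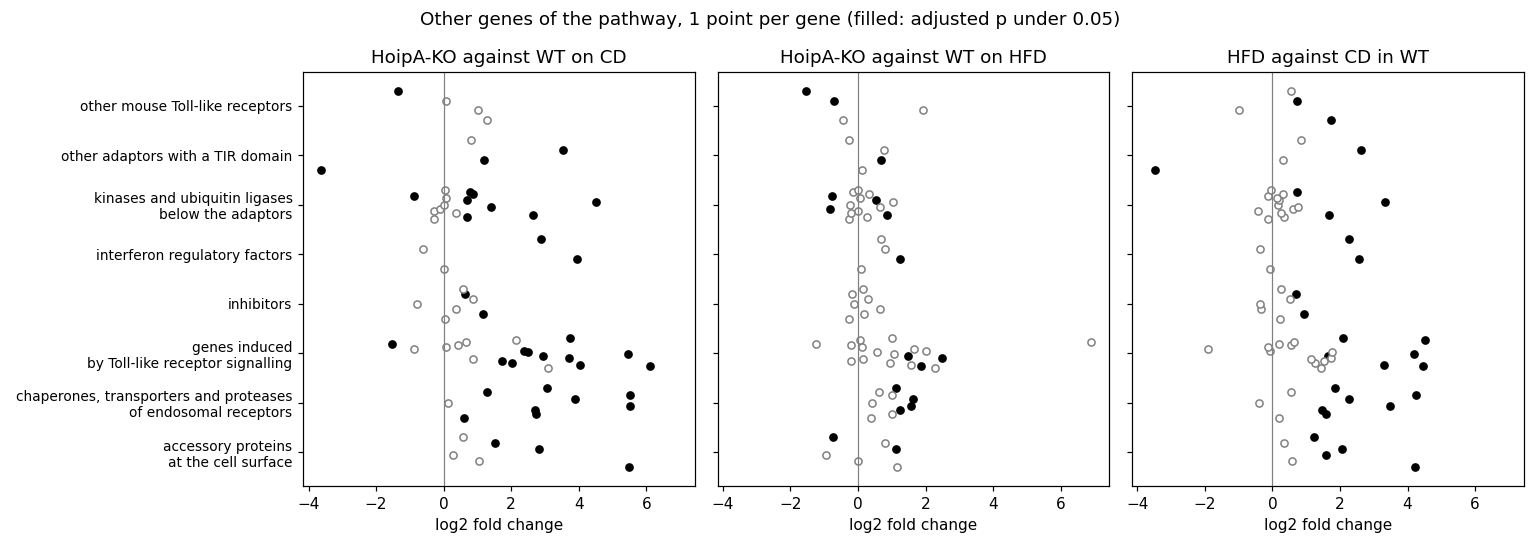
Log2 fold change of the 67 tested pathway genes, 1 point per gene, by group of genes and in 3 comparisons, filled where the adjusted p was under 0.05. On CD 34 filled points lie above 0 and 4 below, and on HFD 12 and 5.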

How the data were processed

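Per the labels and methods, the authors trimmed reads with Trim Galore 0.6.7, aligned them with STAR 2.7.10a and estimated counts per gene with Salmon 1.5.2. The expected counts, which the authors deposited unnormalised for 55281 genes, were rounded. The labels name GRCm38 and the methods a human assembly. The identifiers are those of mouse genes, and positions and exon lengths are from GENCODE M21 (GRCm38). Deposited tables of the authors' DESeq2 1.38.1 comparisons (fold changes, p-values, CPM without WT CD replicate 3) were not used.

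Counts of 11 libraries were filtered with filterByExpr, leaving 18427 genes, scaled by TMM and fitted in 1 model of the 4 groups in edgeR 4.0.16 (R 4.3.3). Contrasts were tested with its quasi-likelihood F test, and p-values were adjusted by Benjamini-Hochberg across the genes tested, with a threshold of 0.05. SE and 95% intervals come from this model, and SD is between pools. CPM were scaled by TMM over 12 libraries. The fit was tested on simulated data.

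The 10 members and the gene lists, written from general knowledge, were chosen with earlier results of these data known. One marker gene of the lists is not reported here and entered no sum. Named were all members and other Toll-like receptors, by list group at most 4 genes past the threshold on CD with the largest change, and the 2 genes nearest each member. Hsp90b1, Irf3, Irf7, Traf6, Nfkbia and Nos2, and genes named on HFD, were picked once their values had been seen. The alternatives tried were DESeq2 1.42.0's size factors or Wald test, library size, other filters, protein-coding genes, other WT CD libraries, a replicate block, stricter thresholds and leaving out each library.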

Additional observations from a re-analysis of the deposited data

Results flagged for a closer look

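For 6 of the 10 genes the genotype difference was smaller on HFD than on CD by the test of the interaction. The values, on the log2 scale, were -4.95 for Tlr13, -4.50 for Tlr8, -2.97 for Tlr6, -2.79 for Tlr1, -2.57 for Tlr7 and -1.79 for Tlr2, with adjusted p of 0.0256, 0.0285, 0.0256, 0.0276, 0.0479 and 0.0256 in that order in edgeR's quasi-likelihood test. Of the alternatives tried, each of 7 libraries left out in turn and a threshold of 0.01 brought the count to 0. In the 7 fits without a library, between 1 and 4 genes of the whole table were called, compared with 721 in the fit of 11 libraries. The groups hold 3 libraries each, so no search for single outlying libraries was made.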

How the results depend on the processing

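On CD the count of 10 genes called was 9 or 10 under every alternative, with 9 at an adjusted p of 0.01, with a log2 fold change past 1 and when WT CD replicate 2 was left out. On HFD the count of 2 was 0 with all 12 libraries, 0 with WT CD replicates 1 and 3, 1 with replicates 2 and 3, 0 at an adjusted p of 0.01, 0 with a log2 fold change past 1, 7 with DESeq2's Wald test, and 0 to 7 when single libraries were left out. HFD in WT, with 8, gave 0 when only the 2 groups were fitted and 6 to 9 without single libraries. The interaction, with 6, gave 0 at 0.01 and 0 to 7 without single libraries. HFD in HoipA-KO gave 0 throughout. Where a WT CD library was left out, the remaining one was taken to vary like the other groups. The causes were not tested.

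With a replicate block the count on HFD was 4, where 965 of 18427 genes were called higher. Same-numbered libraries correlated by -0.37 to 0.50, over 0.1 in 6 of 15 pairs, against 8 of 30 differently numbered pairs. Values were centred on the group mean, so the 2 WT CD libraries mirror each other. With HoipA-KO CD replicate 1, for example, they gave 0.12 and -0.12, so pairs with WT CD say little. Libraries were not taken as paired, which these values do not settle. The block moved no other count of the 10 by over 1.5 times. Between the HoipA-KO groups all 3 pairs were over 0.1, from 0.14 to 0.50, and the block gave 0 calls there too.

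Estimates near 0 changed sign. In HoipA-KO, HFD against CD for Myd88 (-0.00) became 0.0073 with DESeq2's size factors, 0.0072 with its Wald test, 0.012 with all 12 libraries, 0.011 with WT CD replicates 1 and 3, 0.0093 with replicates 2 and 3, 0.014 with only the 2 groups, 0.013 with protein-coding genes, 0.023 with at least 10 counts in every library and 0.10 with library size alone. Without single libraries it ran from -0.059 to 0.11 for Myd88, -0.58 to 0.11 for Tlr4, -0.31 to 0.011 for Tlr6, -0.24 to 0.30 for Tlr7 and -0.47 to 0.29 for Tlr8. HoipA-KO against WT on HFD for Tlr4 ran from -0.046 to 0.50.

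Counts over all genes moved by over 1.5 times too. On HFD, 2179 became 503 with 12 libraries, 672 and 1298 with the other pairs of WT CD libraries and 4455 with DESeq2. HFD in WT, with 2731, became 7046 with WT CD replicates 2 and 3, 1502 with the block, 0 with 2 groups and 4551 with DESeq2. The interaction, with 721, became 326 and 3550 with the other WT CD pairs, 377 with the block and 2374 with DESeq2. On CD, 6947 became 4208 with 2 groups. Without single libraries the ranges were 279 to 3797 on HFD, 1045 to 5985 for HFD in WT and 1 to 3668 for the interaction, which was highest without WT CD replicate 1. Library size alone moved the share of higher calls to 53.0% on HFD and 75.7% for HFD in WT. Depth limits Tlr9 most, at 28 counts in its lowest library.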
